A study of Mus musculus with 16 samples.

Results

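The 38 Hox genes described here are homeobox genes of the Hoxa, Hoxb, Hoxc and Hoxd clusters of the mouse, with 10, 10, 9 and 9 members. They were chosen by symbol among 21887 RefSeq protein-coding genes on chromosomes 1 to 19, X and Y of GRCm38, where the rule (Hoxa, Hoxb, Hoxc or Hoxd and a number) finds 39 genes. The members and gene lists were chosen with earlier results of these data known.

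The modifications H3K27ac (acetylation) and H3K4me3 (methylation) of histone H3 had been profiled by native chromatin immunoprecipitation in embryos at the late 2-cell stage (36 h after fertilization). Control embryos were injected with water as zygotes, and mutant embryos with mRNA encoding a mutant Hdac1, a histone deacetylase; both groups were otherwise described alike in the labels. The mutation, the mouse strain, the state of the embryos' own Hdac1, the number of embryos in a library and whether the 2 libraries of a group came from separate collections are not given in the sources used here. Each combination of mark and injection had 2 immunoprecipitation and 2 input libraries (16 libraries in 8 groups), and was represented by 1 deposited peak list, which gives positions only. Replicate error and depth are therefore unknown, no test of the conditions could be made, and every difference below is one between deposited lists. The labelled stage could not be checked against expressed genes, since RNA was not analysed here. On the chromosomes used, the lists held 77349 (control H3K27ac), 122487 (mutant H3K27ac), 86798 (control H3K4me3) and 85780 (mutant H3K4me3) peaks. The mutant H3K27ac list is therefore the longer of its pair, and counts of genes with H3K27ac are given below beside the shares of all protein-coding genes.

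Hox genes encode transcription factors that give cells of the later embryo their position along the head-to-tail axis. Within a cluster the genes lie in the order in which they are used, from anterior genes of low paralog number to posterior genes of high number. In embryonic stem cells these genes are known as silent developmental genes, kept so by Polycomb proteins, whose mark often lies beside H3K4me3 at the same promoters. H3K4me3 is typical of promoters, those rich in the dinucleotide CG above all, and H3K27ac of promoters and enhancers in use. No Polycomb mark was measured in these libraries.

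Nearly every Hox gene carried H3K4me3 in both conditions and few carried H3K27ac in control embryos. A gene was counted as marked when a peak reached within 2 kb of either of its ends. H3K4me3 marked 37 of 38 Hox genes in each condition, where 74.7% (control) and 72.9% (mutant) of all protein-coding genes were marked. H3K27ac marked 8 of 38 Hox genes in control embryos (21.1%), against 54.8% of all genes, and 18 of 38 in mutant embryos (47.4%), against 58.0% of all genes. The Hox share was thus above that of all genes for H3K4me3 in both lists, and below it for H3K27ac, by more points in control than in mutant embryos. The H3K27ac counts depended on the window. With 5 kb on each side of the gene ends they were 16 and 26 of 38 (65.5% and 71.6% of all genes), and with 2 kb around the listed starts alone 6 and 9 of 22 (46.7% and 46.3% of all genes).

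**Figure D1:**
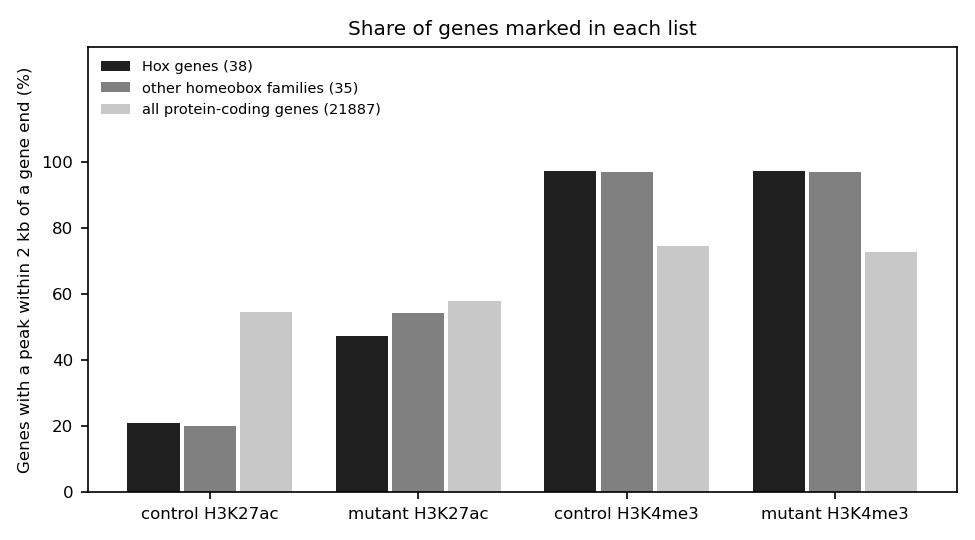
Percent of genes with a peak within 2 kb of a gene end (vertical axis, from 0) in each of the 4 deposited lists, for 38 Hox genes, 35 genes of other homeobox families and all protein-coding genes. Bars are shares of genes with no replicate error; for control H3K27ac the Hox bar stands at 21.1% and that of all genes at 54.8%.

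Sequences are shown first for the 2 Hox genes whose H3K4me3 call differed between the lists and for 2 genes under the widest H3K4me3 peaks. Each is the stretch of 250 bases before the RefSeq start site (GRCm38.p6, plus strand, 5′ to 3′), with CG dinucleotides in capitals. The stretches are chr2:74697513-74697762 for Hoxd9, chr2:74721728-74721977 for Hoxd4, chr11:96281655-96281904 for Hoxb8 and chr11:96365508-96365757 for Hoxb1.
Hoxd9: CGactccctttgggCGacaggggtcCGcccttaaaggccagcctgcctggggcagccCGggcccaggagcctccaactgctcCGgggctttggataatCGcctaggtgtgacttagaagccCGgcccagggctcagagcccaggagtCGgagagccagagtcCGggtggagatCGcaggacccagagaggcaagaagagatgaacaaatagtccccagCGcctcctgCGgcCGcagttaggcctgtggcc
Hoxd4: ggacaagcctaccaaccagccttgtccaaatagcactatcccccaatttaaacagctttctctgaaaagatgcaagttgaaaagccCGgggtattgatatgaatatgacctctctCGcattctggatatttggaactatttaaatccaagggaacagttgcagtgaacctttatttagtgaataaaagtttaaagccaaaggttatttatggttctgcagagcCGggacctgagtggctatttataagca
Hoxb8: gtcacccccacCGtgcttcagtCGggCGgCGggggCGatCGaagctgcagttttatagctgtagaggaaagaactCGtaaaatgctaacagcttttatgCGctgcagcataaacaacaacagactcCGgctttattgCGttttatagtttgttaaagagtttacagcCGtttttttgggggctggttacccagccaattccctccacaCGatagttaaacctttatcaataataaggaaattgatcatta
Hoxb1: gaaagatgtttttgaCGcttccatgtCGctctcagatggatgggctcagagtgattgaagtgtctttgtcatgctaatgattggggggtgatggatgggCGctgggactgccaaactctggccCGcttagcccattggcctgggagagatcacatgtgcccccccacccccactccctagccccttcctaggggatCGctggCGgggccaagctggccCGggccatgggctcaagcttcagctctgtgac

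Hoxd9, a posterior gene of the limb and trunk, holds 13 CG in this stretch, and the whole stretch lay under a control H3K4me3 peak and none of it under a mutant one. Hoxd4, a gene of the hindbrain and upper spine, holds 3 CG, and none of its 250 bases lay under a peak of any list. The stretch before Hoxb8, a gene of the thoracic region, holds 12 CG and lay wholly under H3K4me3 in both lists. The listed Hoxb8 start is 2504 bp inside the annotated gene, so this stretch lies outside the gene-end windows used for counting. Before Hoxb1, a patterning gene of the hindbrain, there are 7 CG. That stretch lay wholly under H3K4me3 in both lists, and wholly under H3K27ac in the control list but not at all in the mutant list.

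The clusters also encode miRNAs, short RNAs that repress messages matching their seed (bases 2 to 8), many of them messages of Hox genes. Mature forms are printed from RefSeq (GRCm38.p6) with the seed in capitals, to show which loci of different clusters give the same seed. Mir10a (Hoxb cluster) and Mir10b (Hoxd cluster) share the seed of their 5p form. Mir196a-1 (Hoxb), Mir196a-2 (Hoxc) and Mir196b (Hoxa) share another 5p seed, and Mir196a-1 and Mir196a-2 give the same 5p form. Mir615 (Hoxc) has seeds of its own among these.
miR-10a-5p: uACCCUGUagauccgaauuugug
miR-10b-5p: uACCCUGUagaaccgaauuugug
miR-196a-5p: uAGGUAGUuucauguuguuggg
miR-196b-5p: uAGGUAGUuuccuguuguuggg
miR-615-5p: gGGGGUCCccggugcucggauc
miR-615-3p: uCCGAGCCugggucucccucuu

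Loci with the same miRNA seed differed in H3K4me3. The Mir10a hairpin (chromosome 11, 96317165 to 96317274) was 369 bp (control) and 624 bp (mutant) from the nearest H3K4me3 peak. The Mir10b hairpin (chromosome 2, 74726070 to 74726137), within the transcribed span of Hoxd4, lay 5717 and 2330 bp away. Mir196b (chromosome 6, 52230081 to 52230165) lay under H3K4me3 in both lists (peaks of 2850 and 2867 bp), and Mir196a-2 lay 1169 and 1717 bp from one. At Mir196a-1 (chromosome 11, 96265164 to 96265265) a control H3K27ac peak of 1167 bp reached the hairpin, whereas in mutant embryos it lay under an H3K4me3 peak of 3998 bp. Mir615 too lay under H3K4me3 in both lists, in peaks of 6623 and 10360 bp. Counted as for genes, 4 of the 6 miRNA loci had H3K4me3 in control and 5 in mutant embryos. H3K27ac was at 1 and 0 of them (54.8% and 58.0% of all protein-coding genes).

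H3K4me3 over the clusters formed rows of separate peaks rather than a single block. The 4 clusters span 485.0 kb in all, from the first to the last member gene of each. Control H3K4me3 covered 44.1% of these bases with 64 peaks, and mutant H3K4me3 56.5% with 65 peaks. Over all chromosomes the H3K4me3 lists covered 9.44% and 10.3%, and the median tile of 100 kb was covered for 2.67% and 3.08%, the 95th percentile of tiles being 45.2% and 45.6%. Both cluster values are thus several times those of the chromosomes as a whole, and the ratio of mutant to control covered bases was 1.28 over the clusters and 1.09 over all chromosomes.

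**Figure D2:**
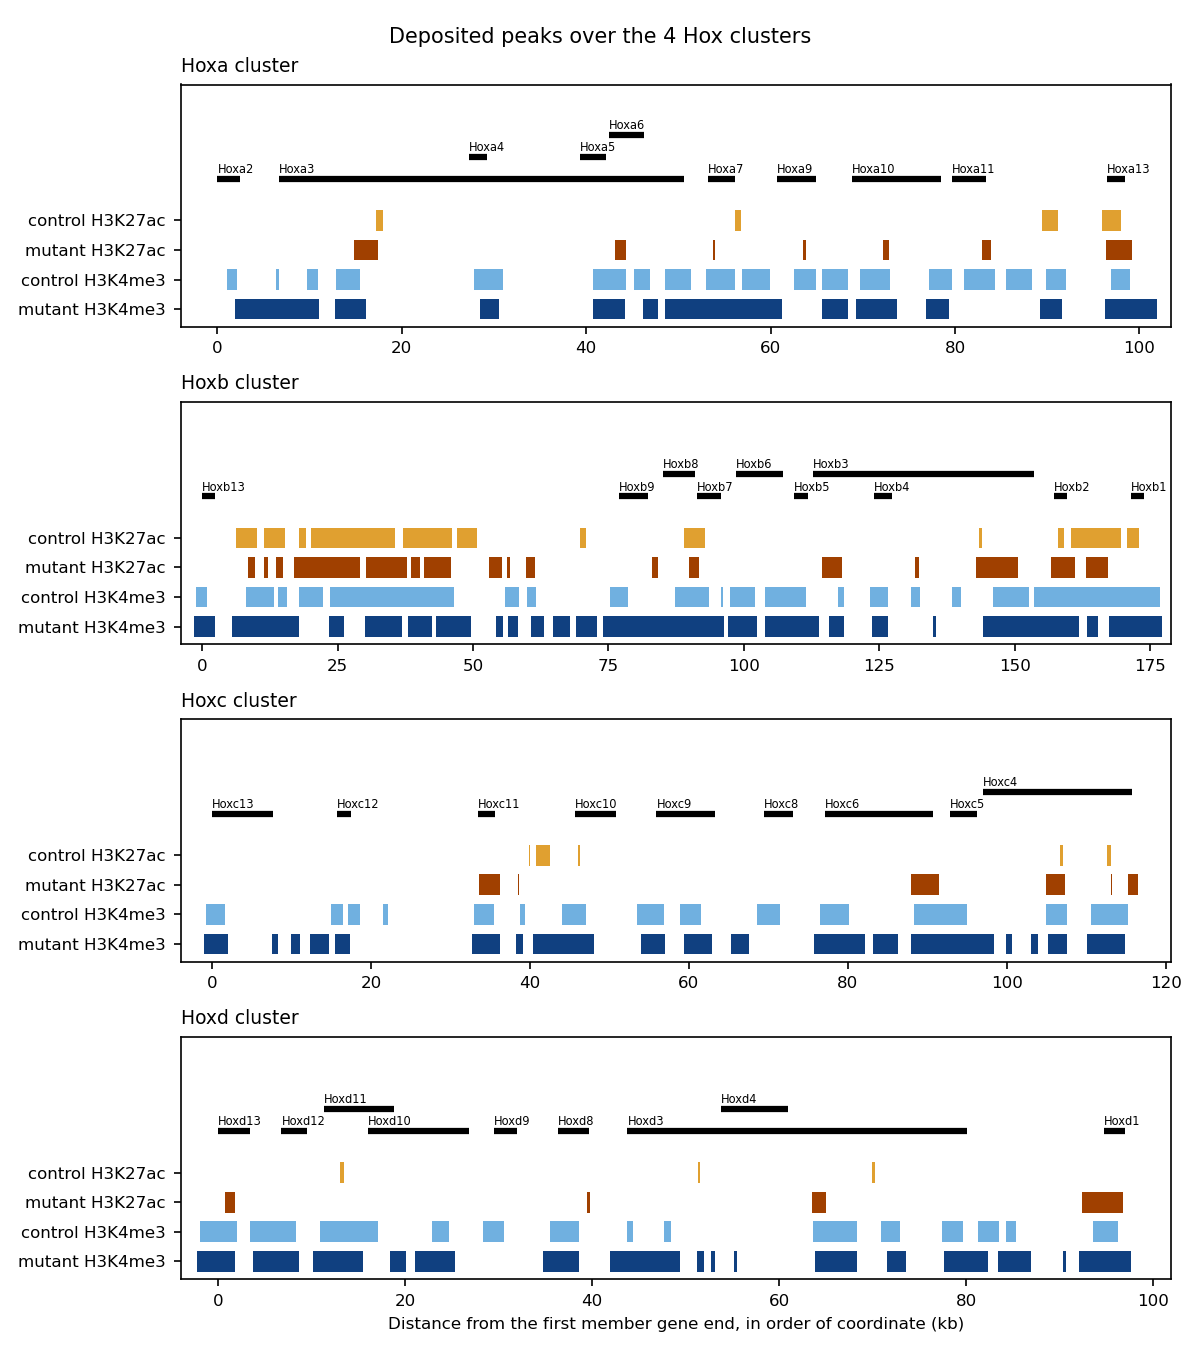
Maps of the Hoxa, Hoxb, Hoxc and Hoxd clusters. The horizontal axis is the distance in kb from the first member gene end in order of coordinate; black bars are the member genes and coloured bars the deposited peaks of the 4 lists. H3K4me3 peaks run along each cluster in both conditions, whereas H3K27ac is sparse in Hoxa, Hoxc and Hoxd (0.943% to 8.11% of bases) and covers more of Hoxb, most densely between Hoxb13 and Hoxb9.

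All 4 clusters had more bases under H3K4me3 in mutant than in control embryos, by unequal amounts. The Hoxa cluster (chromosome 6, 52162417 to 52260880) was covered for 44.1% in control and 47.6% in mutant embryos, a difference of 3.49 points. In the Hoxb cluster (chromosome 11, 96194316 to 96368254) the shares were 55.3% and 68.1%, 12.9 points apart. The Hoxc cluster (chromosome 15, 102921131 to 103036856) had 32.5% and 49.9%, a difference of 17.4 points and the largest of the 4. The Hoxd cluster (chromosome 2, 74668225 to 74765142) had 37.7% and 52.6%, 14.9 points apart. For comparison, the middle 50% of 100-kb tiles differed by -1.03 to 2.59 points, and the 90th and 95th percentiles of the tile differences were 7.82 and 12.0 points.

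Flanks of the same length as the cluster were covered less by H3K4me3 in 6 of 8 cases in control embryos. At Hoxc the flanks held 4.29% and 18.5% in control embryos, and at Hoxd 22.9% and 4.45%. Beyond Hoxa the flank on the side of Hoxa2 held 7.58%, but that on the side of Hoxa13 held 49.1%, above the cluster itself. The span used here starts at Hoxa2, so the first of these flanks includes the noncoding Hox-cluster genes Hotairm1 and Hotairm2. The flank beyond Hoxb13 held 70.2% and that beyond Hoxb1 held 25.1%. In mutant embryos the H3K4me3 share was higher than in control in 7 of the 8 flanks, the exception being that beyond Hoxb13 (69.3%). The larger H3K4me3 cover of the mutant list was thus not limited to the clusters. Flanks of Hoxa differed by 13.2 points beyond Hoxa2 and 9.25 beyond Hoxa13, more than Hoxa itself (3.49). At lower and higher coordinates the differences were 6.87 and 20.5 points beside Hoxc (17.4 in the cluster). They were 10.3 and 4.66 beside Hoxd (14.9), and 5.44 beyond Hoxb1 (12.9 in Hoxb).

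**Figure D3:**
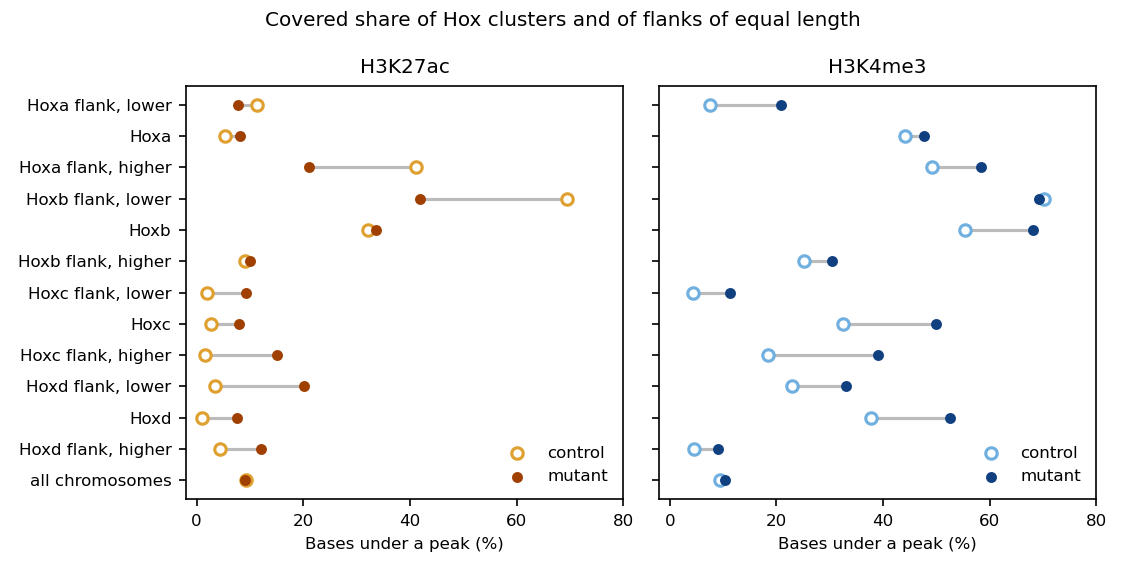
Percent of bases under a peak (horizontal axis) in each Hox cluster, in the flanks of equal length at lower and higher coordinates, and over all chromosomes, for H3K27ac (left) and H3K4me3 (right). Open circles are control and filled circles mutant lists; each grey line joins 1 region. The 4 clusters lie between 32.5% and 55.3% for control H3K4me3, and Hoxa, Hoxc and Hoxd between 0.943% and 5.31% for control H3K27ac.

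Hox peaks of H3K4me3 were largely at the same places in both conditions. Of the control H3K4me3 bases in the clusters, 79.2% also lay under a mutant peak, against 57.7% over all chromosomes. Of the mutant bases 61.8% lay under a control peak, against 53.0%. These shares are not like for like, because peaks overlap more readily where cover is dense. The lists covered 44.1% (control) and 56.5% (mutant) of the clusters, and 9.44% and 10.3% of all chromosomes. Of the 64 control peaks, 55 overlapped a mutant peak, a count that was not made over the whole lists. Cluster peaks had median widths of 2636 bp (control) and 3367 bp (mutant), where the whole lists had 1681 and 1748 bp. Because Hox genes lie close together, 13 of the 43 control peaks and 13 of the 40 mutant peaks at gene ends reached more than 1 member, so the values of neighbouring genes share peaks.

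In mutant embryos the gene ends of most Hox genes had more bases under H3K4me3. The covered part of the gene-end windows was larger in mutant than in control embryos at 25 of 38 Hox genes (41.6% of all genes) and smaller at 11 (32.6% of all genes). A gene without H3K4me3 in either list cannot differ, which held for 20.4% of all genes and for 0 Hox genes. The shares of all genes are therefore lower for this reason too. The median covered part over the 38 genes was 46.5% in control and 68.1% in mutant embryos, and over all genes 37.4% and 40.7%. The widest H3K4me3 peak was wider in mutant embryos at 24 of the 36 Hox genes marked in both lists, a share of 66.7% where that of all genes was 62.6%. Peaks wider than 5 kb reached 12 Hox genes in control (39.0% of all genes) and 22 in mutant embryos (47.6% of all genes). As shares of the Hox genes these counts are 31.6% and 57.9%, the first below and the second above the share of all genes.

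**Figure D4:**
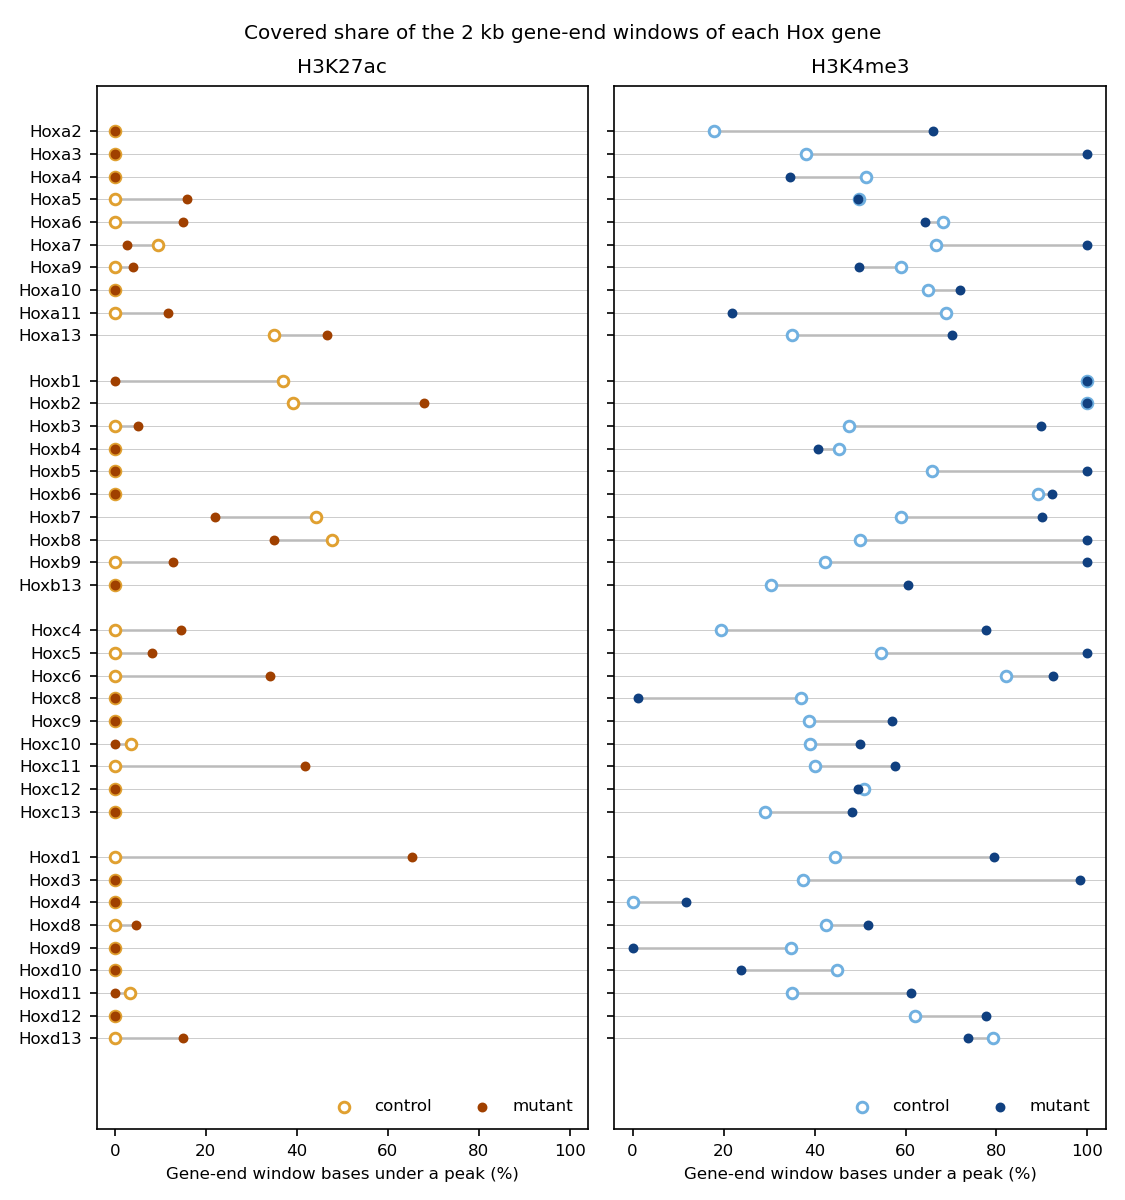
Percent of the gene-end windows (2 kb on each side of both ends) under a peak, for each of the 38 Hox genes in order of cluster and paralog number; H3K27ac is on the left and H3K4me3 on the right. Open circles are control and filled circles mutant lists. For H3K4me3 25 genes lie higher in mutant and 11 lower; for H3K27ac 17 genes are at 0 in both lists.

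Among anterior genes (paralog numbers 1 to 3), which pattern the hindbrain and neck, all 7 had H3K4me3 in both lists. The covered part of their windows was larger in mutant embryos at 5 and equal at 2, with medians of 44.4% in control and 98.3% in mutant embryos. The anterior end of Hoxb held the widest control peak of any Hox gene, 23257 bp (chromosome 11, 96347890 to 96371146) over Hoxb1 and Hoxb2 and the end of Hoxb3. In the mutant list 3 peaks reached that stretch: one of 17714 bp at Hoxb2 and Hoxb3, which begins before it (96338497 to 96356210), one of 2060 bp between Hoxb2 and Hoxb1, and one of 9688 bp at Hoxb1. The windows of Hoxb1 and Hoxb2 were wholly covered in each list. At Hoxa3, a gene of pharyngeal organs, the control list had 2 peaks of at most 2823 bp over 38.1% of the windows, whereas the mutant list had 2 of at most 12676 bp, which covered them wholly. At Hoxa2, a gene of the hindbrain and second pharyngeal arch, the covered part was 17.9% and 66.0%. At Hoxd3 it was 37.5% and 98.3%, with widest peaks of 2225 and 7537 bp, and at Hoxd1 44.4% and 79.4%, with 2738 and 5595 bp.

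Central genes (numbers 4 to 8), which act in the neck and thoracic region, had a median cover of 51.3% in control and 77.8% in mutant embryos. H3K4me3 marked 14 of 15 in control and 15 of 15 in mutant embryos, and the covered part was larger in mutant embryos at 10 and smaller at 5. The widest mutant peak of the set, 22346 bp (chromosome 11, 96268281 to 96290626), joined Hoxb7, Hoxb8 and the posterior gene Hoxb9. In control embryos the widest peak was 6300 bp at Hoxb7 and Hoxb8 and 3394 bp at Hoxb9. In Hoxc, a control peak of 6623 bp at Hoxc5 and Hoxc6 had a counterpart of 10360 bp that also reached Hoxc4, and the covered part at Hoxc4 was 19.4% in control and 77.8% in mutant embryos. A mutant peak of 12676 bp covered Hoxa7, whose control windows held 3 peaks of at most 3174 bp. Hoxc8, a gene of the thoracic region, went the other way: a control peak of 2860 bp covered 37.0% of its windows, and a mutant peak of 2203 bp reached only 1.24%. Hoxa4, Hoxa5, Hoxa6 and Hoxb4 were also lower in mutant embryos, at 34.5%, 49.6%, 64.2% and 40.7% against 51.3%, 49.7%, 68.3% and 45.4%.

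Hoxd4 was the central gene with no H3K4me3 peak in control embryos. In mutant embryos its windows held 3 narrow peaks, the widest of 746 bp, which covered 11.7% of the bases. The nearest peak to its start site was 5365 bp away in control and 616 bp away in mutant embryos, so the start itself was outside H3K4me3 in both lists. The mutant call rests on short peaks, and windows of 5 kb reached an H3K4me3 peak in both conditions.

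The 16 posterior genes (numbers 9 to 13), which act in the limbs, lower spine and urogenital tract, were all marked by H3K4me3 in control and 15 in mutant embryos. The covered part was larger in mutant embryos at 10 and smaller at 6, with medians of 41.3% and 57.4%. Hoxd9 was the exception in mutant embryos: the control list had a peak of 2246 bp over its start and the mutant list none within 2 kb of its ends, the nearest lying 4227 bp from the start. Its neighbour Hoxd10 had 45.0% of its windows covered in control and 23.9% in mutant embryos. Hoxa11, a gene of the limb and uterus, had 69.0% and 21.8%, and its start, under a peak in control embryos, was 4027 bp from the nearest mutant peak. In contrast Hoxa13 and Hoxb13, the terminal genes of their clusters, had widest peaks of 2108 and 1915 bp in control and of 5721 and 3806 bp in mutant embryos. Hoxd13, a digit gene, had widest peaks of 4894 and 4959 bp and 79.3% and 73.8% covered. The other posterior genes that were lower in mutant embryos were Hoxa9 (58.9% and 49.7%) and Hoxc12 (50.9% and 49.6%).

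H3K4me3 lay over most listed Hox start sites, and often also several kb before them. RefSeq start sites were matched for 22 of the 38 Hox genes. Of Hoxc only Hoxc4 is among them, and of Hoxb only Hoxb1, Hoxb4 and Hoxb8. Values by start site therefore describe mainly Hoxa and Hoxd genes. The listed start of Hoxb8, Hoxc4 and Hoxd10, and the second of Hoxa10 and Hoxd11, lies inside the gene, between 2461 and 3742 bp from the nearer end and so beyond the gene-end windows. Among all genes with a listed start, 67.4% (control) and 63.5% (mutant) had one under H3K4me3. Of the 22 Hox genes, 18 did in control and 18 in mutant embryos. The 4 without were Hoxa2, Hoxa7, Hoxa9 and Hoxd4 in control embryos, where at Hoxa7 and Hoxa9 the nearest peak was 27 and 53 bp away, and Hoxa9, Hoxa11, Hoxd4 and Hoxd9 in mutant embryos. At 2 kb before the start, 27.3% of the 22 starts had a control peak and 59.1% a mutant peak, whereas all genes had 37.9% and 42.6%. Just after the start the control share was the higher: at 0.5 kb 95.5% of the Hox starts had a control peak and 77.3% a mutant peak, and at 1 kb 90.9% and 72.7%. Further on the order varied, with 59.1% and 72.7% at 1.5 kb, 54.5% and 45.5% at 2 kb, 22.7% and 40.9% at 3 kb and 36.4% and 54.5% at 4 kb. All genes had 64.8% and 62.2% at 0.5 kb, and 38.8% and 47.3% at 2 kb. At 8 kb before the start the Hox shares were 63.6% and 68.2%, against 26.3% and 27.2% of all genes. Since Hox genes lie close together, positions that far from a start can fall at a neighbouring Hox gene.

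**Figure D5:**
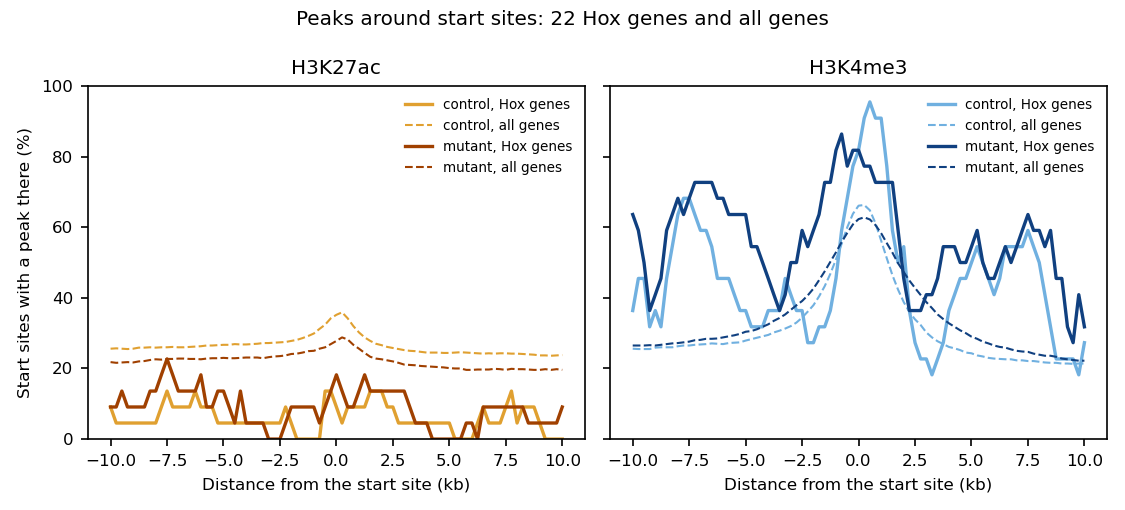
Percent of start sites with a peak (vertical axis) at each distance from the start in kb (horizontal axis; negative is before the start), for 22 Hox genes (solid) and all protein-coding genes with a listed start (dashed). H3K27ac is on the left, H3K4me3 on the right; pale lines are control and dark lines mutant lists, and only the first listed start of a gene is used. H3K4me3 at the Hox start stands at 81.8% in both lists, the control line dips to 27.3% at 2 kb before it, and it stands above the mutant line at 0.5 kb after it (95.5% and 77.3%).

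The letters before the start differed widely among Hox genes. In the RefSeq window from 250 bases before to 50 after the start, the 22 genes held between 4 CG (Hoxa9, Hoxd4 and Hoxd11) and 45 CG (Hoxa13), with a median of 13.5. At least 10 CG were present in 15 of the 22 genes, or 68.2%, and in 57.2% of all promoters of this length. In control embryos all 15 of these starts lay under H3K4me3, and 3 of the 7 starts with fewer CG did. The same shares over all genes were 96.0% and 29.2%. In mutant embryos 13 of the 15 and 5 of the 7 starts lay under H3K4me3, where all genes had 89.4% and 29.0%. Hoxa11 and Hoxd9, with 15 and 20 CG, were the CG-rich starts outside H3K4me3 in mutant embryos, and 13 of the Hoxd9 ones stand in the stretch printed above. The limit of 10 CG is a round number, and these counts are a description.

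H3K27ac was found at genes of all 4 clusters in both conditions, at more genes of each in mutant embryos. Control H3K27ac marked 2 of 10 Hoxa, 4 of 10 Hoxb, 1 of 9 Hoxc and 1 of 9 Hoxd genes, where it marked 54.8% of all genes. Mutant H3K27ac marked 6, 5, 4 and 3 genes in the same order (58.0% of all genes). The mark was in both lists at 5 Hox genes (42.4% of all genes), in control only at 3 (12.5%), in mutant only at 13 (15.6%) and in neither at 17 (29.5%). So 34.2% of the Hox genes had H3K27ac in mutant embryos only, against 15.6% of all genes. Only a gene unmarked in control embryos can be counted so, and 21.1% of the Hox genes but 54.8% of all genes were marked there. The contrast thus partly restates the low control count of the Hox genes. With the mutant list reduced to the length of the control list by keeping its widest peaks, the mutant count was 15, Hoxa7, Hoxa9 and Hoxd8 being unmarked there (51.8% of all genes). The control-only count was then 4 (14.8% of all genes) and the mutant-only count 11 (11.7% of all genes). With windows around the 22 listed starts alone, the mutant-only count was 7, or 31.8%, where all genes had 15.1%.

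The 5 Hox genes with H3K27ac in both lists were Hoxa7, Hoxa13, Hoxb2, Hoxb7 and Hoxb8. At Hoxa13, which shapes digits and the genital tract, a control peak of 2109 bp covered 35.0% of the windows and a mutant peak of 2813 bp covered 46.7%. The mutant peak reached the start of the gene and the control peak ended 419 bp from it. At Hoxb2, a hindbrain gene, the covered part was 39.1% in control and 68.1% in mutant embryos, although the widest peak measured 9268 and 4354 bp. Hoxb7 and Hoxb8 shared a control peak of 3895 bp and a mutant peak of 1767 bp that lay wholly within it, and a mutant peak of 1030 bp reached Hoxb8 and Hoxb9. At Hoxa7 the peaks of 669 and 191 bp did not overlap. The widest peak was wider in mutant embryos at 1 of these 5 genes, against 32.8% of all genes marked in both lists.

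Genes with H3K27ac in control embryos only were Hoxb1, Hoxc10 and Hoxd11. At Hoxb1 a peak of 2175 bp lay over the start and one of 9268 bp, on the side of Hoxb2, ended short of the gene but within its 2 kb window; together they covered 36.9% of the windows. In mutant embryos no H3K27ac peak lay within 2 kb, the nearest being 4121 bp from the start, while H3K4me3 still covered all bases of the windows. The control peaks at Hoxc10 and Hoxd11, genes of the lumbar region and limb, were 284 and 366 bp wide.

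The 13 genes with H3K27ac in mutant embryos only were Hoxa5, Hoxa6, Hoxa9, Hoxa11, Hoxb3, Hoxb9, Hoxc4, Hoxc5, Hoxc6, Hoxc11, Hoxd1, Hoxd8 and Hoxd13. The widest of these peaks, 4422 bp (chromosome 2, 74760580 to 74765001), lay over the start of Hoxd1 and covered 65.3% of its windows, where the nearest control peak was 24553 bp from the start. A peak of 3705 bp lay at Hoxb3, one of 3528 bp (chromosome 15, 103009087 to 103012614) at Hoxc5 and Hoxc6, and one of 2587 bp at Hoxc11. Hoxa5, a gene of lung development, and Hoxa6 shared a peak of 1182 bp. The peaks at Hoxc4, Hoxd13, Hoxb9 and Hoxa11 measured 1165, 1112, 1030 and 899 bp. Those at Hoxd8 and Hoxa9 were 340 and 330 bp wide. Within the gene-end windows no Hox gene was reached by a mutant H3K27ac peak wider than 5 kb, and 2 were by a control one (25.3% and 33.8% of all genes). Inside Hoxb3, beyond those windows, lay a mutant H3K27ac peak of 7830 bp (chromosome 11, 96337092 to 96344921), where the control list had one of 589 bp.

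Of the 22 Hox genes with a listed start, 2 had the start under H3K27ac in control embryos and 5 in mutant embryos, where all genes with a listed start had 36.1% and 29.3%. The 5 include Hoxa10, a gene of the uterus and limb with 2 listed starts. Only the second, 3742 bp inside the gene and beyond the gene-end windows, lay under mutant H3K27ac, so Hoxa10 is not among the 18 marked genes. By the first listed start alone the mutant count is 4 of 22, or 18.2%. The gene-end windows had more H3K27ac bases in mutant embryos at 15 Hox genes (32.1% of all genes) and fewer at 6 (37.1% of all genes). For all genes the balance therefore lay toward fewer bases in mutant embryos, and for the Hox genes toward more.

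Over the whole of the clusters, much of the H3K27ac lay where no Hox gene is. It covered 13.4% (control) and 17.1% (mutant) of the 4 clusters, where all chromosomes had 9.24% and 9.03%. The stretch covered most lay in the 74.7 kb between Hoxb13 and Hoxb9 (chromosome 11, 96196611 to 96271329), which hold noncoding genes, Mir196a-1 among them, but no protein-coding gene. There H3K27ac covered 51.7% in control and 46.5% in mutant embryos, with widest peaks of 15565 and 12185 bp. H3K4me3 covered 53.6% and 65.3% of the same stretch. Without it, the H3K27ac share of the clusters was 6.44% in control and 11.8% in mutant embryos, the control share being below that of all chromosomes and the mutant share above it. Both were above the median 100-kb tile, which had 1.53% and 3.16% of its bases under H3K27ac, the 75th percentile of tiles being 8.82% and 11.5%.

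In Hoxa, Hoxc and Hoxd H3K27ac cover was below the chromosome-wide share in both lists and higher in mutant than in control embryos. The Hoxd cluster had 0.943% of its bases under H3K27ac in control and 7.63% in mutant embryos. Hoxc had 2.73% and 7.97%, and Hoxa 5.31% and 8.11%. Of these shares, that of Hoxd in control embryos was below the median tile of its list and the others were above theirs. The differences were 2.79 points in Hoxa, 5.24 in Hoxc and 6.69 in Hoxd, which lie between the 75th and 90th percentiles of the tile differences (2.75 and 7.6 points). Between Hoxb1 and Hoxb9 the shares were 17.7% and 24.5%. The positions were seldom the same in both lists outside Hoxb: of the control H3K27ac bases, 37.0% lay under a mutant peak in Hoxa, 11.2% in Hoxc and 0.0% in Hoxd, while in Hoxb it was 63.2%, and 43.0% over all chromosomes. The H3K27ac share was higher in mutant embryos in both flanks of Hoxc (2.02% and 9.31% at lower, 1.61% and 15.1% at higher coordinates) and of Hoxd (3.42% and 20.2%, 4.33% and 12.0%). It was lower in mutant embryos in both flanks of Hoxa (11.3% and 7.83% beyond Hoxa2, 41.1% and 21.0% beyond Hoxa13) and in the flank beyond Hoxb13 (69.5% and 41.9%), while that beyond Hoxb1 had 9.12% and 9.93%. The Hoxc and Hoxd clusters therefore moved in the same direction as the sequence around them, Hoxa in the opposite one, and the Hoxb flanks differed from each other in direction.

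H3K4me3 without H3K27ac was the usual state of a Hox gene in control embryos. It was found at 29 of 38 Hox genes (23.8% of all genes), and both marks at 8 (50.9% of all genes). In mutant embryos 19 Hox genes had H3K4me3 alone (21.4% of all genes) and 18 both marks (51.5% of all genes). Among H3K4me3-marked genes alone, H3K27ac was present at 8 of 37 Hox genes in control and 18 of 37 in mutant embryos, against 68.2% and 70.6% of all such genes. No Hox gene had H3K27ac without H3K4me3 in either list, and the gene with neither mark was Hoxd4 in control and Hoxd9 in mutant embryos. Where H3K27ac was present in the clusters, H3K4me3 of the same condition lay over 77.3% (control) and 72.9% (mutant) of its bases. All chromosomes had 53.9% and 41.0%, with far less H3K4me3 cover than the clusters. The pooled control value rests mostly on Hoxb. By cluster the control shares were 83.1% in Hoxb, 47.0% in Hoxa, 36.8% in Hoxc and 40.0% in Hoxd. The mutant shares were 68.6%, 66.8%, 91.1% and 91.2% in the same order. Of the 15 mutant H3K27ac peaks at Hox gene ends, 12 overlapped H3K4me3; the exceptions were those at Hoxa9, Hoxa11 and Hoxd8.

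H3K4me3 was in both lists at 36 Hox genes (68.0% of all genes), in control only at 1 (Hoxd9; 6.68% of all genes), in mutant only at 1 (Hoxd4; 4.85% of all genes) and in neither at 0 (20.4% of all genes).

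Of 13 listed noncoding genes within and beside the clusters, 12 were matched, and H3K4me3 marked 12 in control and 11 in mutant embryos, with more covered bases in mutant embryos at 9. Hotair, a long RNA of the Hoxc cluster, had a peak of 645 bp in control embryos and none in mutant embryos. H3K27ac marked 3 of the 12 in control and 6 in mutant embryos (54.8% and 58.0% of all protein-coding genes). At Hoxa11os, which overlaps Hoxa11 on the other strand, 76.7% of the windows lay under H3K4me3 in control and 1.25% in mutant embryos. Peaks carry no strand, so at the end where Hoxa11 and Hoxa11os overlap their peaks cannot be told apart; their other ends have windows of their own.

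The nearest coding genes that are not Hox genes are Skap2 and Evx1 beside Hoxa, Ttll6 and Skap1 beside Hoxb, Calcoco1 and Smug1 beside Hoxc, and Evx2 and Mtx2 beside Hoxd. H3K4me3 marked all 8 in both lists, and H3K27ac 5 in control and 7 in mutant embryos (54.8% and 58.0% of all genes). Evx2, a homeobox gene 6.7 kb from Hoxd13, had no H3K27ac in control embryos and a peak of 2404 bp in mutant embryos, and its H3K4me3 cover was 16.6% and 50.8%. At Ttll6, beyond Hoxb13, the control H3K27ac peak was 38375 bp wide and the mutant one 5087 bp.

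Homeobox genes outside the clusters had counts of marked genes near those of the Hox genes, but their median H3K4me3 cover did not move the same way. Of 35 genes of other homeobox families, such as Dlx, Msx, Lhx and Irx, which pattern the head, limbs and trunk, H3K4me3 marked 34 in each list. The median share of their gene-end windows under H3K4me3 was 57.5% in control and 53.5% in mutant embryos, where that of the Hox genes was 46.5% and 68.1%. The covered part was larger in mutant embryos at 22 of the 35. H3K27ac marked 7 of the 35 in control and 19 in mutant embryos (54.8% and 58.0% of all genes). It was in control only at 1 and in mutant only at 13 (12.5% and 15.6% of all genes). A low control count of H3K27ac beside a larger mutant one was thus found in these genes too. The ParaHox and Evx genes, the closest relatives, had H3K4me3 at 8 of 8 in both lists. H3K27ac was at 5 of these 8 in control and 8 in mutant embryos (54.8% and 58.0% of all genes). Among them Cdx2, a trophectoderm factor and activator of Hox genes, had H3K27ac peaks of at most 611 bp in the control and 13225 bp in the mutant list. Its H3K4me3 peaks were 9565 and 23204 bp wide. Cdx4, of the same family, went the other way, with widest H3K27ac peaks of 24816 and 3709 bp and widest H3K4me3 peaks of 35657 and 14859 bp. At Pdx1 the widest H3K27ac peaks were 3169 and 1249 bp.

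The 9 cofactors of the Pbx, Meis and Pknox families, whose proteins bind DNA together with Hox proteins, had H3K4me3 at 9 in control and 8 in mutant embryos. H3K27ac was at 4 and 3 of them (54.8% and 58.0% of all genes). At Pknox1 H3K27ac was in the control list only (90.4% of the windows covered), and at Pbx3 in the mutant list only (39.1%). The 9 chromatin regulators that maintain Hox expression, such as Kmt2a and its partner Wdr5, had H3K4me3 at all 9 in both lists. H3K27ac was at 6 and 7 of them (54.8% and 58.0% of all genes). Wdr5 had a widest H3K27ac peak of 11943 bp in control embryos and none in mutant embryos, and Kmt2b none in control and one of 10052 bp in mutant embryos.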

How the data were processed

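Peaks were deposited by the authors as 4 lists that give chromosome, start and end only, in bp. Per the submitters' processing notes, the tools included Trimmomatic, Bowtie2, SAMtools, Picard and MACS2 and the build was mm10 (GRCm38); the peak threshold and the treatment of replicates are not given in the sources used here. Smallest widths (149 to 182 bp) and gaps (602 to 734 bp) differed between lists. Peaks outside chromosomes 1 to 19, X and Y were left out.

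Genes, start sites and sequences came from RefSeq tables of GRCm38.p6. Presence, peak width and covered bases were computed in Python 3.11.15 with numpy 2.4.6 and pandas 2.3.3, for the 2 kb before and after each gene end and an overlap of at least 1 bp (intervals with scipy 1.17.1), and checked on simulated peaks. No test was made. Every member is accounted for: 1 gene found by the symbol rule is not reported here. Genes named are members whose calls differ between lists, those with H3K27ac, and those under the widest H3K4me3 peaks; other members named for their cover, and the examples from the other gene lists, were chosen after their values were seen. The members and lists were chosen with earlier results of these data known.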

Additional observations from a re-analysis of the deposited data

How the results depend on the processing

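No paired analysis was possible because the deposited positions are not given per library; leaving out a replicate in turn could not be run for the same reason. Lists of equal length, the clusters without the stretch between Hoxb13 and Hoxb9, the mutant minus control differences and the shares of all genes at each setting were chosen after seeing the data. Values given here are counts that moved by over 1.5 times and covered shares that left their 95% Wilson interval. That interval takes bases as independent, although they lie in few peaks, so it is very narrow and says nothing about stability. The difference in covered share kept its direction under each setting, at 3.24 to 5.35 points for H3K27ac and 12.0 to 14.2 points for H3K4me3. The cause of the shifts was not tested, beyond what each setting does by construction.

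Windows of 5 kb gave 16 Hox genes with control H3K27ac (65.5% of all genes), and 0 genes with H3K4me3 in control only (5.68%) and 0 in mutant only (4.51%). Windows of 1 kb, windows around the start alone, and at least 200 bp covered each gave 2 genes with H3K4me3 in control only (7.08%, 7.92% and 6.69% of all genes). Windows of 2 kb around the start alone, listed for 22 genes, gave 21 (control) and 20 (mutant) genes with H3K4me3 (72.1% and 68.6% of all genes), 9 with mutant H3K27ac (46.3%) and 7 with H3K27ac in mutant only (15.1%). The wider 50% of each list gave 5 genes with control H3K27ac (46.1% of all genes) and 1 in control only (10.7%). In the order control H3K27ac, mutant H3K27ac, control H3K4me3, mutant H3K4me3, the covered shares were 11.9%, 16.1%, 41.2% and 55.4% with 10 kb added on each side, 12.3%, 15.9%, 41.2% and 54.5% in the wider 50%, and 6.44%, 11.8%, 42.3% and 54.9% without the stretch. Common limits on gap and width gave 13.6%, 17.3% and 44.5% for the first 3, and equal length 16.7% for mutant H3K27ac.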
